A study of Homo sapiens with 8 samples.

Results

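Complement genes were read from a count table of 57445 genes, in which 9 components and regulators were found by their gene symbols. They are C1R and C1S (the proteases of the C1 complex), C3 and CFB (the central component, and the protease of the alternative pathway), SERPING1 and C4BPB (soluble regulators), and CD55, CD46 and CD59 (membrane regulators). They were chosen by symbol, with no threshold on any value, but the list was drawn up when earlier results on differences between the 4 groups of these same libraries were known. How many of them passed a test therefore describes these genes and is no evidence about complement as a class. All 9 were above the filter on low counts.

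Complement is a cascade of plasma and cell surface proteins that marks cells and microbes for uptake or lysis. C1q, C1r and C1s start the classical pathway, which cleaves C4, C2 and then C3, while factor B joins cleaved C3 in an enzyme that amplifies the cascade. Host cells hold it back: C1 inhibitor (SERPING1) blocks C1r and C1s, C4b-binding protein (of which C4BPB encodes the beta chain) and CD55 take apart the enzymes that cleave C3, CD46 is a cofactor for the breakdown of C3b and C4b, and CD59 stops the assembly of the membrane attack complex. Liver cells make most plasma complement, and glia and carcinoma cells also transcribe several of these genes.

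The RNA came from MDA231-BrM2, a brain-metastatic line derived from MDA-MB-231 breast cancer cells, by translating ribosome affinity purification (TRAP), in which RNA bound to GFP-tagged ribosomes is captured from the lysate with anti-GFP beads. The 4 groups have 2 libraries each: a monoculture of cells with a control hairpin, a control coculture of such cells and astrocytes, and cocultures of astrocytes and cells that carry hairpin 1 or hairpin 2 against Cx43 (connexin 43, the gap junction protein encoded by GJA1). The ratio of astrocytes to carcinoma cells was 1 and the coculture lasted 24 h. All carcinoma cells carried a hairpin and the ribosome tag, a single line was used, and depleted cells without astrocytes were not analysed here. The species of the astrocytes is not given in the sources used here. Fewer cells of a type and less RNA per cell cannot be told apart in such pooled RNA. The submitters call the duplicates independent, without saying what was repeated. All p-values measure the spread within such pairs, pooled over the groups in a fit. That spread was unequal. Its chi-square per degree of freedom was 13.4 in the monoculture, 22.1 in the control coculture, 32.6 with hairpin 1 and 4.22 with hairpin 2.

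Gene counts ran from 38219702 to 48997555 per library. Reads with several alignments took 14.2% to 26.1% of a library, most in control coculture 1. The targeted gene GJA1 was at 48.7 ± 3.40 CPM (counts scaled to a common library size, SD, n = 2) in the monoculture and 65.3 ± 0.901 CPM in the control coculture. It was lower with hairpin 1, at 27.8 ± 0.00502 CPM, and with hairpin 2, at 32.7 ± 1.46 CPM. Markers of the carcinoma line were present in every library, from KRT7 at 9.52 CPM or more to VIM at up to 2175 CPM. Of these 6 markers 3 were called higher with astrocytes and 3 lower with Cx43 depletion, where 8.74% and 5.85% of all tested genes were. VIM was at 1505 and 1318 CPM in the monocultures, 2175 and 2095 CPM in the control cocultures and 1356 to 1548 CPM with the Cx43 hairpins. Of 3 receptor genes, ESR1 and PGR were listed as absent from the line and ERBB2 as low in it. ESR1 and PGR stayed at or below 1.54 CPM, and ERBB2 was at 53.8 to 70.1 CPM.

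Promoters of members that moved are shown first. Windows of 250 bases before to 50 bases after an annotated start were taken from RefSeq (GRCh38.p14), where 6 of the 9 members had at least 1 window, 13 in all. C3, C1S and SERPING1 were not analysed here for motifs. Capitals mark matches, on either strand, to an interferon regulatory factor element (GAAA, any 2 bases, GAAA), the STAT element known as GAS (TTCNNNGAA) or an NF-kB site. CFB is shown because it held all of these motifs, C1R and C4BPB because they held GAS, and CD55 as a neighbour of C4BPB with none. Each is printed 5′ to 3′ on the strand of the gene.
CFB, chr6:31945845-31946144, plus strand: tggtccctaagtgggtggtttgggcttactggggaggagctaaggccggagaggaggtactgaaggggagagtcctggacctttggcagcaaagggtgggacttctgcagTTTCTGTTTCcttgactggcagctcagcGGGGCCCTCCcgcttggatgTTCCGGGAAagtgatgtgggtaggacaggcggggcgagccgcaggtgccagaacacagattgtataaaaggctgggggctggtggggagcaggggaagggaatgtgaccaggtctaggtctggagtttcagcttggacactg
C1R, upstream start, chr12:7092396-7092695, minus strand: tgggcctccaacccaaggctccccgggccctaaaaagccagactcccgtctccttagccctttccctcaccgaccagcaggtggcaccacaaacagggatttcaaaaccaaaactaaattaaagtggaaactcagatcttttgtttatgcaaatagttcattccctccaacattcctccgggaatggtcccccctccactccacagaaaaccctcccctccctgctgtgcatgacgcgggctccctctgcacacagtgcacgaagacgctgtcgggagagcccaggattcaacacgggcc
C1R, downstream start, chr12:7091844-7092143, minus strand: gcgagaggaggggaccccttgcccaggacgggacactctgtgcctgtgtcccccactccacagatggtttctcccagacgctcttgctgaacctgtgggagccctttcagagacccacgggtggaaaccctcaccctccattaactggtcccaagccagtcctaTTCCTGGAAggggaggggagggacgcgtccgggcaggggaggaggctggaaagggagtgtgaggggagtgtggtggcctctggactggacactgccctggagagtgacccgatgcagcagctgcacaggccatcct
C4BPB, chr1:207089033-207089332, plus strand: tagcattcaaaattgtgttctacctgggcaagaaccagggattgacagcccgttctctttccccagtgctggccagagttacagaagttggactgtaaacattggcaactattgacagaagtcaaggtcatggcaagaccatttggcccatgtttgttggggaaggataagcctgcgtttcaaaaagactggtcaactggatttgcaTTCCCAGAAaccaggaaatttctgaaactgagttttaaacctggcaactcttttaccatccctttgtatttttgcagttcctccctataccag
CD55, chr1:207321428-207321727, plus strand: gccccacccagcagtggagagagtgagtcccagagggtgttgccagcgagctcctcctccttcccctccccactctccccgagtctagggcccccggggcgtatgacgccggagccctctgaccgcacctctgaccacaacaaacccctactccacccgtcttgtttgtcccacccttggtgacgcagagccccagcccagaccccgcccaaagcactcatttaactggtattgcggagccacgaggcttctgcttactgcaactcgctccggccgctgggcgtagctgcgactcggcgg

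The CFB matches were TTTCTGTTTC at -140 to -131 from the start, GGGGCCCTCC at -112 to -103 and TTCCGGGAA at -92 to -84, which do not overlap. Among the 13 windows of those 6 members, only that of CFB held the interferon element or the NF-kB site. Among all 35116 windows in the RefSeq table the interferon element was in 3.57%, GAS in 7.66% and the NF-kB site in 11.3%. The downstream window of C1R held a GAS match (TTCCTGGAA, -86 to -78) and its upstream window held none of the motifs. In C4BPB 2 overlapping windows shared the GAS match TTCCCAGAA, at -43 to -35 in the window printed, and in CD59 2 overlapping windows shared another. The windows of CD55 and CD46 held no match. These are matches of letters, and which start the cells used was not measured.

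Adding astrocytes to control cells asks how they bear on the RNA that carcinoma cells translate. C1S, C1R, C3, SERPING1 and CFB rose in the control coculture, by 2.34-fold to 7.82-fold. C4BPB fell, to 0.649 of the monoculture, and the 3 membrane regulators did not pass the test. Of all 15806 tested genes 8.74% were called higher and 2.93% lower (edgeR's quasi-likelihood test, Benjamini-Hochberg adjusted p under 0.05), against 5 and 1 of the 9 members. The members' median log2 difference was 1.23, and that of all tested genes -0.00. The libraries of the groups did not overlap for any member, 6 higher and 3 lower, where 30% and 26.3% of all tested genes did so.

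C1S, the protease that cleaves C4 and C2, differed most among the members. It had 21 and 25 reads in the monocultures (0.493 and 0.520 CPM) and 144 and 159 reads in the control cocultures (3.70 and 4.27 CPM). Its ratio was 7.82, with a 95% interval of 5.84 to 10.5 (log2 fold change 2.97, SE 0.19, adjusted p = 1.74e-05). Both cocultures were far above both monocultures.

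C1R, the protease that activates C1s, lies beside C1S on chromosome 12, with 0 other protein-coding genes starting between them in GENCODE 29. It read 0.891 and 0.603 CPM without astrocytes against 2.88 and 3.14 CPM with them (log2 fold change 2.02, SE 0.30, adjusted p = 0.00336). The pairs of libraries were well apart. SERPING1, which encodes the inhibitor of these proteases, read 1.22 and 0.936 CPM without astrocytes against 3.21 and 3.03 CPM with them (log2 fold change 1.54, SE 0.17, adjusted p = 0.000568). The calls of C1S, C1R and SERPING1 held under each alternative setting run and without each library in turn.

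C3 and CFB were measured less firmly. C3 had 13 and 10 reads in the monocultures and 49 and 23 in the control cocultures (log2 fold change 1.88, SE 0.41, adjusted p = 0.0191). The control cocultures differed more from each other in CPM than the lower of them did from the monocultures. The call ended on dropping monoculture 1 (0.0657), monoculture 2 (0.128) or control coculture 1 (0.129), with adjusted p in parentheses. Control coculture 1, the library with most multiply aligned reads, was also the one with more C3, and without it the log2 fold change was 1.27. The part of these reads in the result was not tested.

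CFB read 1.29 and 0.666 CPM in the monocultures against 1.98 and 2.55 CPM in the control cocultures (log2 fold change 1.23, SE 0.28, adjusted p = 0.0232). The groups were apart, but so were the monocultures from each other. The call ended on dropping monoculture 2 (0.109) or control coculture 2 (0.108) and in a fit of the compared groups alone (0.0522), and without monoculture 2 the log2 fold change was 0.80. In GENCODE 29 the exons of CFB share 45.5% of their bases with C2 or with a locus that spans C2 and CFB. That locus has a second row under the symbol CFB, with 0 reads in all 8 libraries. Whether reads in shared bases were counted depends on the counting mode, which is not given in the sources used here.

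C4BPB moved the other way. It had 711 and 941 reads in the monocultures (16.7 and 19.6 CPM) and 445 and 451 in the control cocultures (11.4 and 12.1 CPM), with no overlap (log2 fold change -0.62, SE 0.14, adjusted p = 0.0249). The call was lost on dropping any of monoculture 2 (0.153), control coculture 1 (0.135), control coculture 2 (0.0734), hairpin 2 library 1 (0.0544) and hairpin 2 library 2 (0.0539). C4BPA, which encodes the alpha chain of the same protein, had at most 2 reads in any library.

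Of the membrane regulators, CD55 read 85.7 and 94.7 CPM without astrocytes against 69.0 and 77.2 CPM with them (log2 fold change -0.30, SE 0.09, adjusted p = 0.0730). It passed on dropping either hairpin 1 library (adjusted p = 0.0369 and 0.0369) and with no filter on low counts (0.00991). CD46 read 52.9 and 52.6 CPM without astrocytes and 56.5 and 57.3 CPM with them, a log2 difference of 0.11 (interval -0.05 to 0.27, adjusted p = 0.349). CD59 read 1375 and 1480 CPM without astrocytes and 1257 and 1332 CPM with them, a log2 difference of -0.14 (interval -0.31 to 0.03, adjusted p = 0.259).

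**Figure D1:**
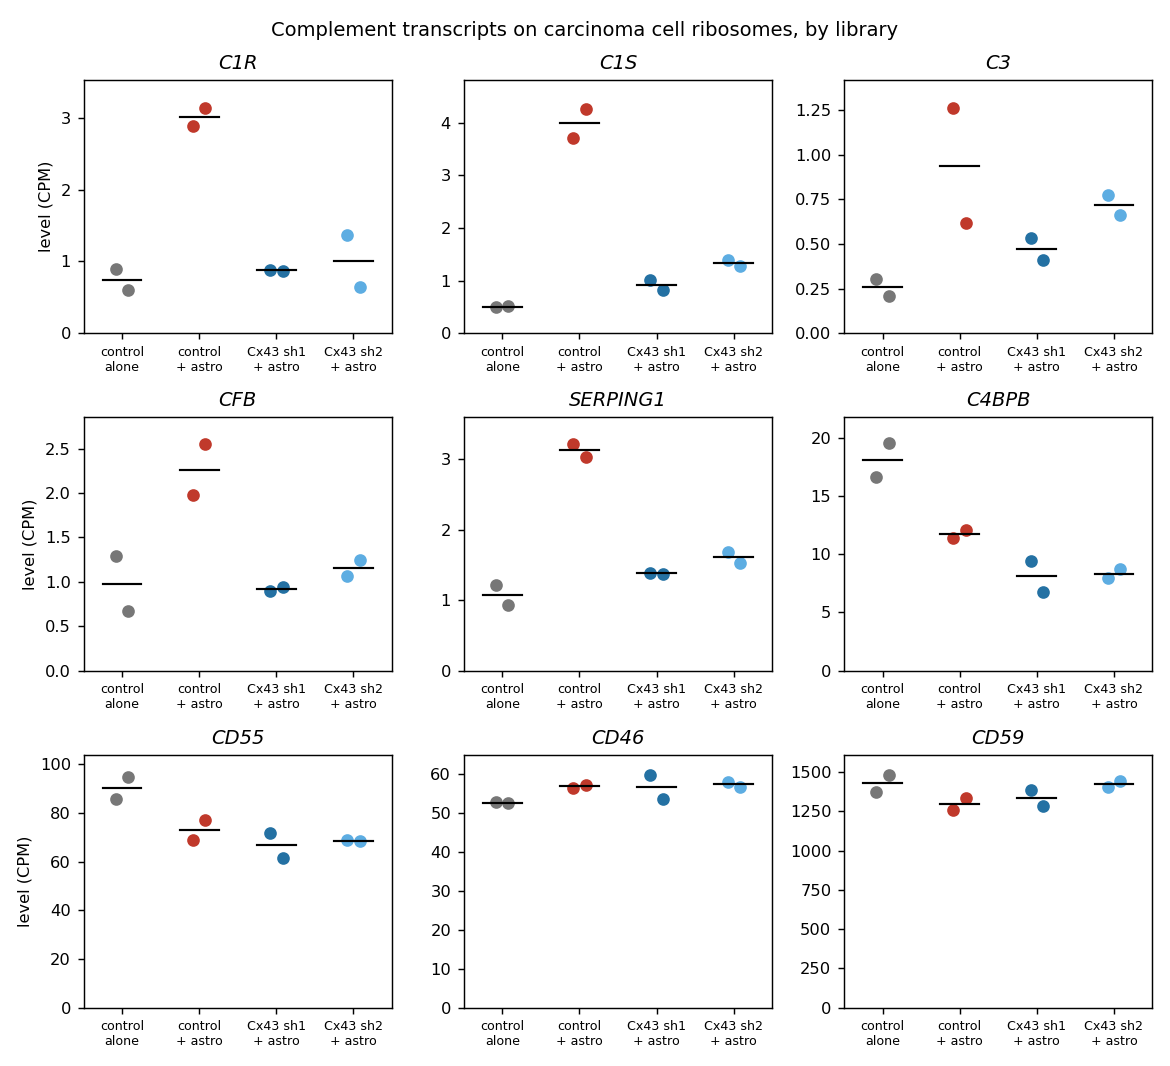
Level of each of the 9 genes in CPM (linear axes from 0, a scale for each panel) in the 4 groups, with 1 point per library and a bar at the mean of 2 libraries. For C1R, C1S and SERPING1 both control cocultures lie above every other library, while C4BPB is highest in the monocultures and below 10 CPM in each library with a Cx43 hairpin.

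Depleted cocultures were then set against the control coculture, the comparison that bears on Cx43. C1S, C1R, CFB and SERPING1 fell, to 0.279 to 0.477 of the control coculture, and C4BPB fell to 0.701. C3, CD55, CD46 and CD59 did not pass. Over both hairpins 5.85% of tested genes were called lower and 3.37% higher, and of the members 5 lower and 0 higher by edgeR. With no scaling factors the 924 lower and 533 higher genes became 699 and 786. The members' median log2 difference was -0.70, and that of all tested genes -0.01. The same control coculture libraries serve here as in the comparison with the monoculture, so a high value in them widens both differences.

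C1S read 1.02 and 0.821 CPM with hairpin 1 and 1.40 and 1.27 CPM with hairpin 2 (log2 fold change -1.84, SE 0.14, adjusted p = 6.31e-05). C1R read 0.879 and 0.869 CPM with hairpin 1 and 1.37 and 0.637 CPM with hairpin 2 (log2 fold change -1.68, SE 0.24, adjusted p = 0.00451). SERPING1 read 1.39 and 1.38 CPM with hairpin 1 and 1.69 and 1.52 CPM with hairpin 2 (log2 fold change -1.07, SE 0.14, adjusted p = 0.00220). For these genes, and for CFB and C4BPB, each of the 4 depleted libraries was below both control cocultures, as for 18.1% of all tested genes. The calls of C1S, C1R and SERPING1 held under each alternative run.

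CFB read 0.902 and 0.942 CPM with hairpin 1 and 1.06 and 1.25 CPM with hairpin 2 (log2 fold change -1.13, SE 0.23, adjusted p = 0.0213). This call ended on dropping control coculture 1 (0.0515), control coculture 2 (0.175), hairpin 2 library 1 (0.0784) or hairpin 2 library 2 (0.0711). C3 had 23 and 17 reads with hairpin 1 and 32 and 29 with hairpin 2, and overlapped the control coculture in CPM. Its log2 difference was -0.70 (interval -1.38 to -0.01, adjusted p = 0.185).

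C4BPB was lower again, and so further from the monoculture, at 9.44 and 6.81 CPM with hairpin 1 and 7.96 and 8.76 CPM with hairpin 2 (log2 fold change -0.51, SE 0.13, adjusted p = 0.0430). The call was near the threshold and was lost on dropping any of monoculture 1 (0.0552), monoculture 2 (0.0609), control coculture 1 (0.124), control coculture 2 (0.234), hairpin 2 library 1 (0.132) and hairpin 2 library 2 (0.117), and in a fit of the compared groups alone (0.0611). CD55 read 71.9 and 61.7 CPM with hairpin 1 and 69.0 and 68.4 CPM with hairpin 2, a log2 difference of -0.11 (interval -0.29 to 0.08). CD46 ran from 53.7 to 59.9 CPM over the depleted libraries, a log2 difference of 0.00 (interval -0.13 to 0.14). CD59 ran from 1286 to 1445 CPM, a log2 difference of 0.09 (interval -0.05 to 0.24). All 3 overlapped the control coculture.

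**Figure D2:**
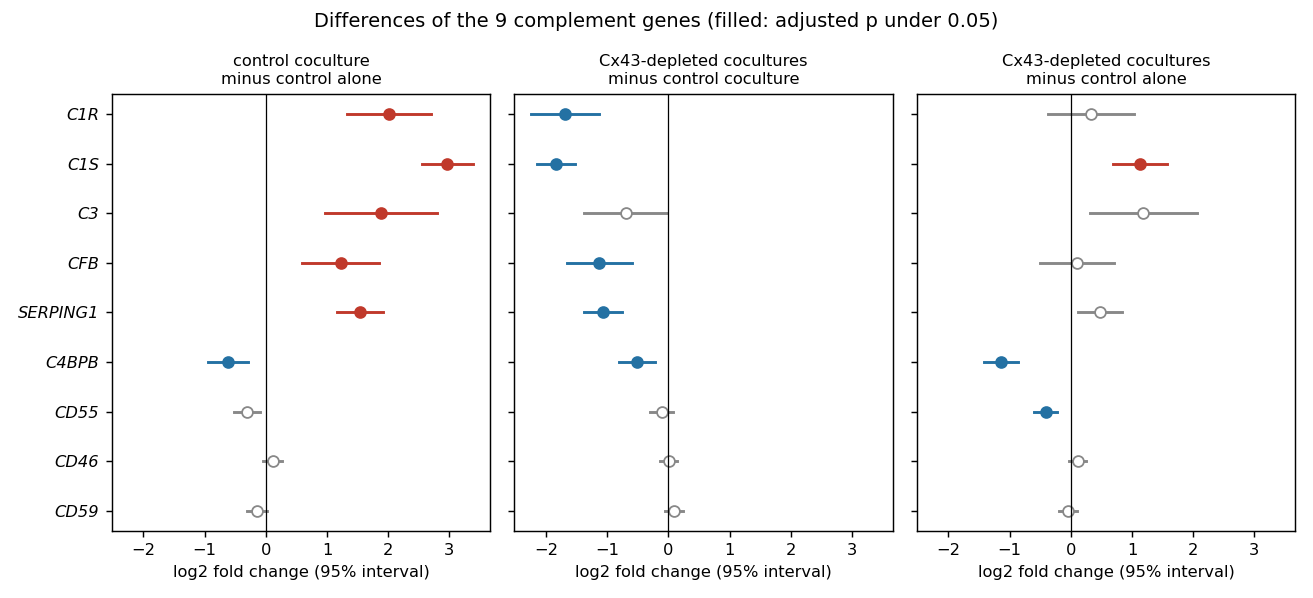
Log2 fold changes of the 9 genes with 95% intervals in 3 comparisons, with filled points where the adjusted p was under 0.05. C1S was at 2.97 with astrocytes, -1.84 with Cx43 depletion and 1.12 in depleted cocultures against the monoculture, whereas C4BPB lies below 0 in all 3 panels. The panels share libraries.

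With hairpin 1 alone C1S, C1R, SERPING1 and CFB were called lower, 4 of 9 members and 0 higher, where 4.73% of tested genes were called lower and 3.09% higher. With hairpin 2 alone it was C1S, C1R and SERPING1, 3 of 9 and 0 higher by edgeR, where 3.2% were called lower and 0.962% higher. C1S was at -2.11 with hairpin 1 and -1.57 with hairpin 2 (adjusted p = 0.000141 and 0.000730). CFB was at -1.29 and -0.96 (adjusted p = 0.0303 and 0.0909). C4BPB was at -0.53 and -0.49 (adjusted p = 0.0662 and 0.114), and C3 at -0.99 and -0.40 (adjusted p = 0.130 and 0.570). Some of these passed under other settings. In an edgeR fit of the compared groups alone CFB and C4BPB passed with hairpin 2 (adjusted p = 0.0360 and 0.0203). By DESeq2 C4BPB passed with hairpin 1 (adjusted p = 0.0261). With no filter on low counts CFB passed with hairpin 2, C4BPB with each hairpin and C3 with hairpin 1.

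The difference between the hairpins was tested directly. There 0 of the 9 members were called by edgeR or by DESeq2, where edgeR called 0.0316% of tested genes (0.0253% higher and 0.00633% lower) and DESeq2 0.114%. C1S was the 1 member with an unadjusted p under 0.05, as were 6.86% of tested genes, with a log2 difference of 0.53 (interval 0.09 to 0.97, adjusted p = 0.705). For C3 it was 0.59 (interval -0.26 to 1.45) and for CFB 0.33 (interval -0.37 to 1.02), wide enough to leave unequal effects possible. The members' differences ran from 0.02 to 0.59, with a median of 0.19, where the median of all tested genes was -0.01. For 5 of the 9 both hairpin 2 libraries were above both hairpin 1 libraries, as for 2879 of 15806 tested genes, and for 0 both were below. GJA1 was itself at 0.24 (interval 0.07 to 0.40, edgeR adjusted p = 0.705).

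Several single-hairpin calls ended when 1 library was dropped. That of C1R with hairpin 2 (log2 fold change -1.59, SE 0.29, adjusted p = 0.0190) ended on dropping control coculture 1 (0.0688), control coculture 2 (0.107) or hairpin 2 library 2 (0.120). With hairpin 1 (log2 fold change -1.78, SE 0.30, adjusted p = 0.0107) it ended on dropping control coculture 2 (0.0671). That of SERPING1 with hairpin 2 (log2 fold change -0.96, SE 0.16, adjusted p = 0.0121) ended on dropping control coculture 1 (0.0853), control coculture 2 (0.0653), hairpin 2 library 1 (0.0930) or hairpin 2 library 2 (0.162). That of CFB with hairpin 1 ended on dropping control coculture 1 (0.0539), control coculture 2 (0.168), hairpin 1 library 2 (0.0862), hairpin 2 library 1 (0.0680) or hairpin 2 library 2 (0.0680). C1S kept its call with each hairpin, and SERPING1 its call with hairpin 1, in every alternative run.

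**Figure D3:**
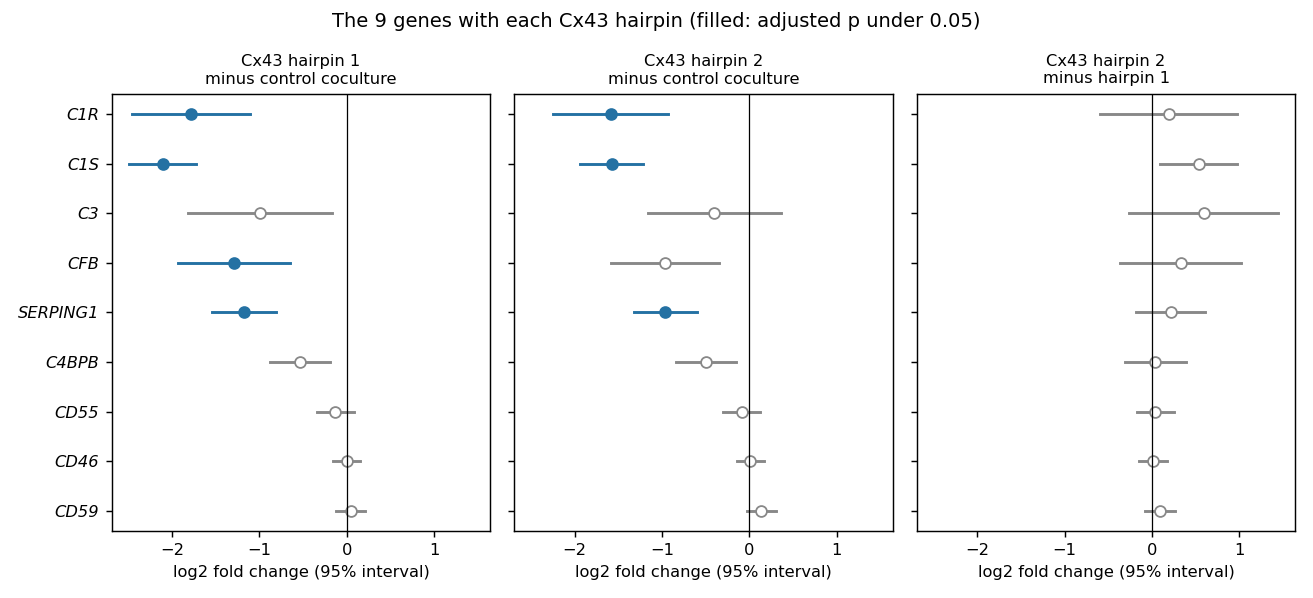
Log2 fold changes with 95% intervals of the 9 genes for hairpin 1 and hairpin 2 against the control coculture and for hairpin 2 against hairpin 1, with filled points where the adjusted p was under 0.05. With hairpin 1 there are 4 filled points and with hairpin 2 there are 3, and no point is filled between the hairpins.

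Depleted cocultures were also set against the monoculture. There 10.8% of tested genes were called higher and 6.34% lower, and of the members C1S was called higher and C4BPB and CD55 lower. C1S remained 2.18-fold above the monoculture (log2 fold change 1.12, SE 0.20, adjusted p = 0.00803), a call that ended on dropping monoculture 1 (0.0731) or monoculture 2 (0.0614). C1R (0.33, interval -0.37 to 1.03) and CFB (0.10, interval -0.51 to 0.70) overlapped the monoculture. C3 (1.19, adjusted p = 0.0669) and SERPING1 (0.47, adjusted p = 0.0737) were above both monocultures in each depleted library without passing the test. C3 did pass in a fit of the compared groups alone (adjusted p = 0.0311).

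C4BPB stood at 0.455 of the monoculture (log2 fold change -1.14, SE 0.12, adjusted p = 0.000848), and this call held under each alternative run. CD55 stood at 0.751 (log2 fold change -0.41, SE 0.08, adjusted p = 0.0116), with each depleted library below both monocultures. Its call ended on dropping monoculture 1 (0.0502), monoculture 2 (0.114) or hairpin 2 library 2 (0.0560). C4BPB and CD55 are near neighbours on chromosome 1, with 1 protein-coding gene, C4BPA, starting between them in GENCODE 29. CD46 lies beyond, with 3 between it and CD55, and differed from the monoculture by 0.12 (interval -0.02 to 0.25). CD59 differed by -0.05 (interval -0.19 to 0.09).

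To set genes side by side, CPM were divided by exon length in GENCODE 29, which is not the annotation that was counted. On this scale CD59 was highest, at 121 to 143 CPM per kb over the 8 libraries, and CD55 came next, at 10.4 to 16.0. CD46 was at 6.04 to 6.87, which met the range of C4BPB, at 2.12 to 6.08. SERPING1 (0.260 to 0.892), C1S (0.0762 to 0.660), C1R (0.102 to 0.534) and CFB (0.133 to 0.510) overlapped one another, and C3 was at 0.0250 to 0.151. The 5 transcripts that rose with astrocytes were thus the 5 least abundant members.

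Other genes of the pathway were read from a list of 48, all in the table, of which 14 passed the filter. C1QA and C1QB, chains of the C1q protein that C1r and C1s join, were at 0 reads in all 8 libraries, and C1QC had 1 read in 1 library. A count of 0 allows up to 3 reads per library. C2, C4A and C4B, the substrates of C1s, had at most 7 reads in any library. C4A and C4B are near-identical copies, and reads with several alignments were counted apart from genes. C2 overlaps the locus that spans C2 and CFB, so its count depends on the counting mode. These low counts therefore do not show that the RNA was low. In the terminal pathway C6 and C8B were at 0 throughout. Of the list 12 genes were at 0 in all libraries and 26, these included, had no more than 3 reads in any.

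With astrocytes 3 of the 14 tested genes rose and 0 fell by edgeR, where 8.74% and 2.93% of all tested genes did, and their median log2 difference was 0.17. C3AR1, the receptor for the C3a fragment, went from 0.109 ± 0.0219 to 0.737 ± 0.0966 CPM (SD, n = 2, edgeR log2 fold change 2.71, adjusted p = 0.00117). It passed the filter only through the control cocultures, where it was high, so its place among the 3 is no evidence of a rise in the list. COLEC12, a scavenger receptor of the collectin family, went from 0.803 ± 0.0409 to 2.20 ± 0.230 CPM (1.45, adjusted p = 0.000989). THBD, thrombomodulin, an endothelial anticoagulant that also favours the breakdown of C3b, went from 68.6 ± 1.26 to 152 ± 2.38 CPM (1.15, adjusted p = 8.67e-06). None of these overlapped.

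With Cx43 depletion 4 of the 14 fell and 0 rose by edgeR, where 5.85% and 3.37% of all tested genes did, and their median was -0.29. C3AR1, which passed the filter only through the control cocultures, was at -1.67 (adjusted p = 0.00479). It had 0.237 ± 0.0406 CPM with hairpin 1 and 0.222 ± 0.0405 CPM with hairpin 2 (SD, n = 2). The secreted regulator CLU, clusterin, was at -0.62 (adjusted p = 0.00115), and CALR, calreticulin, a chaperone that can bind C1q, at -0.38 (adjusted p = 0.00345). THBD was at -0.33 (adjusted p = 0.00796) but still 0.81 above the monoculture (adjusted p = 0.000111). The call of C3AR1 ended on dropping control coculture 2 (0.0611), that of CALR on dropping control coculture 2 (0.0559) and that of THBD on dropping control coculture 1 (0.0692), control coculture 2 (0.0601) or hairpin 2 library 2 (0.0510). In depleted cocultures against the monoculture 2 of the 14 were called higher and 3 lower by edgeR, where 10.8% and 6.34% of all tested genes were. There COLEC12 was at 1.17 (adjusted p = 0.00252) and CFD, the protease that activates factor B, at -0.75 (adjusted p = 0.00875). CLU was at -0.34 (adjusted p = 0.0151) and CALR at -0.27 (adjusted p = 0.0110). Against the control coculture CFD did not pass (-0.48, adjusted p = 0.0728).

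**Figure D4:**
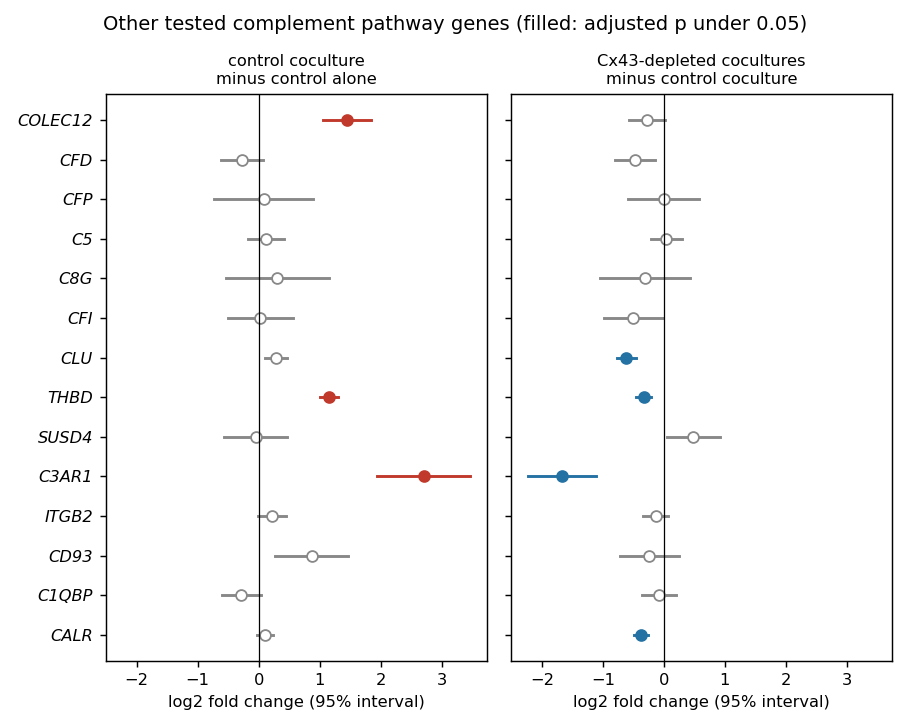
Log2 fold changes with 95% intervals for the 14 other pathway genes that passed the filter, with filled points where the adjusted p was under 0.05. The 3 filled points with astrocytes are COLEC12, THBD and C3AR1, and the 4 filled points with Cx43 depletion, all below 0, are CLU, THBD, C3AR1 and CALR. Both panels use the control coculture, through which alone C3AR1 passed the filter.

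Glia also transcribe complement genes, so markers of other cells are given beside these results. The summed level of 10 astrocyte markers was 53.5 to 57.6 CPM in the monoculture, 71.5 to 73.5 in the control coculture, 66.1 to 74.5 with hairpin 1 and 60.0 to 60.4 with hairpin 2. Of the 7 tested, 3 were called higher with astrocytes and 1 lower with depletion, where 8.74% and 5.85% of all tested genes were. Most of each sum was SOX9, at 39.5 and 35.6 CPM in the monocultures, which held no astrocytes, and 48.1 and 47.4 CPM in the control cocultures. GJB6 and S100B had no more than 3 reads in any library. The astrocyte markers did not share 1 pattern. SLC1A3, a glutamate transporter, was at 2.67 and 3.04 CPM in the monoculture, 5.01 and 5.61 in the control coculture, 3.65 and 3.57 with hairpin 1 and 4.10 and 3.89 with hairpin 2, highest in the same group as C1S, C1R and SERPING1. GFAP, an intermediate filament, was at 8.80 and 8.53, 13.8 and 12.8, 16.5 and 16.9 and 11.7 and 12.2 CPM in the same order, highest with hairpin 1. Other markers of the list went the other way with astrocytes. FGFR3 was at 2.23 and 2.43 CPM in the monoculture and 1.88 and 1.80 CPM in the control coculture. ALDH1L1 was at 1.43 and 1.17 CPM and then 1.23 and 1.02 CPM. AQP4 and SLC1A2 were at or below 0.459 CPM in every library. The markers given singly were chosen after their values were seen.

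The 10 microglia and macrophage markers summed to 3.54 to 4.41, 7.04 to 7.43, 5.29 to 5.58 and 4.63 to 4.82 CPM in the same order. All 3 tested were called higher with astrocytes and 1 lower with depletion, where 8.74% and 5.85% of all tested genes were. Of the 10 markers 5 had no more than 3 reads in any library. CD14 was at 0.657 and 0.749 CPM without astrocytes and 1.47 and 2.12 CPM in the control cocultures. CD68 was at 2.18 and 2.73 CPM and then 3.70 and 3.84 CPM, and CSF1R at 0.633 and 0.666 CPM and then 1.59 and 1.31 CPM, in the same pairs of groups. AIF1 and TYROBP were at 0 in all libraries and TREM2 was at 0.0231 CPM or less. The 5 neuron markers summed to 13.0 to 13.7, 19.4 to 20.1, 13.3 to 13.9 and 13.6 to 13.9 CPM in the order of groups above. The 8 oligodendrocyte lineage markers summed to 227 to 237, 297 to 331, 234 to 272 and 232 to 238 CPM. Most of each sum was CNP and MBP, which were at 164 and 156 CPM and at 71.3 and 70.4 CPM in the monocultures without astrocytes. In the control cocultures they were at 241 and 215 CPM and at 86.4 and 79.9 CPM. MAG, MOG and OLIG2 were at or below 0.0938 CPM in every library. The endothelial sum was also highest in the control coculture. The fibroblast sum was 648 to 1052, 741 to 795, 421 to 496 and 470 to 485 CPM in the same order. Most of it was COL1A1, at 833 and 518 CPM in the monocultures. Of its 5 tested markers 1 was called higher with astrocytes and 2 lower with depletion, where 8.74% and 5.85% of all tested genes were. The hepatocyte sum in the control coculture lay within the range of the monocultures. The part of any other cell type in the complement results was not tested.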

How the data were processed

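TruSeq libraries were made from anti-GFP TRAP RNA, per the labels' protocols. The submitters' processing notes list TopHat2, HTSeq, DESeq2 and hg19 with no version. Annotation, counting mode and strand are not given in the sources used here. Values in the deposited table are whole-number counts, although its name calls them normalized: median-of-ratios factors ran from 0.892 to 1.14, so they were used as raw counts. The 5 counter entries were left out: non-unique (14.2% to 26.1%), ambiguous (2.63% to 3.20%), no feature (3.77% to 4.53%), unaligned (4.72% to 5.45%) and low quality (0).

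Counts were tested with edgeR 4.0.16 in R 4.3.3 (quasi-likelihood, TMM, 4 group means, 15806 genes of mean count 10 or more, Benjamini-Hochberg threshold 0.05), and the fit was tested on simulated data. The SE is the log2 fold change over the root of F, and intervals are 95%. Alternatives were DESeq2 1.42.0, other scaling and filters, the replicate block, fits of the compared groups and dropping each library. Members, lists and tests were chosen with earlier results of these data known. All members and GJA1 were named, with other pathway genes where called or at few reads, and, for members called in both main comparisons, the 3 genes of highest Pearson r. An item of the pathway list is not reported here. Floors cover counting error only.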

Additional observations from a re-analysis of the deposited data

How the results depend on the processing

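Over the 6 comparisons the members' log2 differences were recomputed 804 times. Of these 720 kept direction and side of the threshold, 45 lost the call, 20 gained one and 19 changed sign, none of the 19 with an adjusted p under 0.05. The sign changed with depletion for CD46 (-0.035 to 0.041), where parentheses give the range without 1 library. It also changed with hairpin 1 for CD46 (-0.080 to 0.073, and 0.048 with no scaling factors, and 0.0044 with no filter on low counts) and CD59 (-0.0061 to 0.10), and with hairpin 2 for C3 (-0.80 to 0.21), CD46 (-0.0044 to 0.035) and CD55 (-0.17 to 0.0065). Further changes were between hairpins for C1R (-0.46 to 0.65), C4BPB (-0.18 to 0.29), CD46 (-0.062 to 0.090, and -0.0064 with no scaling factors) and CD55 (-0.068 to 0.15), and in depleted cocultures against the monoculture for CFB (-0.33 to 0.62).

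Genes called, with the settings that moved the count by over 1.5 times in parentheses, numbered 1844 with astrocytes (2805 with no filter, 1160 with the replicate block, 738 to 2582 without 1 library) and 1457 with depletion (700 with the replicate block, 343 to 2314 without 1 library). There were 1236 with hairpin 1 (2269 with no filter, 446 with the replicate block, 236 in a fit of the compared groups, 281 to 2405 without 1 library) and 658 with hairpin 2 (1191 with no filter, 319 with the replicate block, 150 to 1101 without 1 library). There were 5 between hairpins by edgeR (3 with no scaling factors, 18 by DESeq2, 304 with no filter, 3 with the stricter filter, 0 with the replicate block, 2 in a fit of the compared groups, 0 to 3 without 1 library) and 2709 in depleted cocultures against the monoculture (4117 with no filter, 1502 with the replicate block, 531 to 4717 without 1 library). Between hairpins 1084 had an unadjusted p under 0.05. Members called without 1 library numbered 3 to 7 with astrocytes (6 with all libraries), 3 to 5 with depletion (5 with all libraries, 3 with the replicate block), 2 to 5 with hairpin 1 (4 with all libraries), 1 to 4 with hairpin 2 (3 with all libraries, 5 with no filter, 5 in a fit of the compared groups) and 1 to 4 in depleted cocultures against the monoculture (3 with all libraries). Between hairpins 0 were called in any alternative. In fits of the compared groups alone 236 genes were called with hairpin 1 and 987 with hairpin 2, and 4 and 5 members. Which hairpin had more calls thus depended on whether the spread was pooled over all 4 groups. The cause of these shifts was not tested. Whether the replicate numbers pair the libraries is not given in the sources used here. Deviations of same-numbered libraries correlated from -0.668 to 0.385 over pairs of groups. This cannot exclude a shared batch, since a batch numbered differently between groups would also give negative values. With the replicate block 4, 3, 3, 3, 0 and 4 members were called in the 6 comparisons (astrocytes, depletion, hairpin 1, hairpin 2, between hairpins, and depleted against monoculture). The block ended the calls of CFB with astrocytes (adjusted p = 0.0535), with depletion (0.0534) and with hairpin 1 (0.0732), and of C4BPB with astrocytes (0.0612) and with depletion (0.0930), and C3 in depleted cocultures passed against the monoculture with it (0.0491). C3, CFB, C1R, C1S and SERPING1 had 10 to 159 reads per library, which limits what their differences can show.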

Other observations

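C1RL, the neighbour of C1R on the side away from C1S, encodes a related serine protease and was chosen after its values were seen. It rose with astrocytes from 2.42 ± 0.267 to 4.94 ± 0.50 CPM (SD, n = 2, edgeR log2 fold change 1.04, SE 0.15, adjusted p = 0.00335). With depletion it was at 4.35 ± 0.0981 CPM with hairpin 1 and 4.36 ± 0.693 CPM with hairpin 2, a log2 difference of -0.19 from the control coculture (interval -0.47 to 0.10, adjusted p = 0.399), where that of C1R was -1.68. It stayed 0.85 above the monoculture in depleted cocultures (adjusted p = 0.00573). Of the exon bases of C1R 11.4% are shared with C1RL in GENCODE 29, on the same strand. The promoter window of C1RL held a GAS match at -57 to -49, as the downstream window of C1R did at -86 to -78. The difference in response between C1R and C1RL was not tested.

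For members called both with astrocytes and with depletion, the genes with the most similar levels over the 8 libraries were sought by Pearson's r of log2(CPM + 0.5) among 11901 genes. For C1S they were EPSTI1 (0.997), IFIT1 (0.997) and PLSCR1 (0.997), for SERPING1 HELZ2 (0.996), LGALS9 (0.994) and SAMD9 (0.992), and for C1R TRANK1 (0.977), DFNB31 (0.976) and RAB3A (0.973). For CFB they were CYGB (0.965), MEIS1 (0.964) and TRAC (0.963), and for C4BPB ACAT2 (0.994), CCNB1 (0.993) and ELOVL1 (0.987). Among the members r was 0.980 for C1S and SERPING1, 0.924 for C1S and C1R, and 0.956 for C4BPB and CD55. These are descriptions over 4 groups of 2 libraries, which share depth and group means.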
